A study of Mus musculus with 8 samples.

Results

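Housekeeping genes are used in every cell, and their promoters serve as the reference for open chromatin in almost any tissue, whereas the insulin genes are used by pancreatic beta cells and are closed elsewhere. The open chromatin of brown adipose tissue (BAT) was described at 7 common reference genes (Gapdh, Actb, Tbp, Ppia, Gusb, Ywhaz and Polr2a) and at the 2 mouse insulin genes (Ins1 and Ins2), which make up 9 of the 21000 genes with a curated RefSeq mRNA. The members were chosen by name, as reference genes of expression assays and as genes silent in fat, when earlier results of these data were known, and Gapdh also stands in the study as a control promoter for chromatin immunoprecipitation. A summit, the highest point of a called peak, belonged to a member when it lay inside the gene or no farther than 50 kb from a transcription start site (TSS) of one of its mRNAs. Of the 32173 summits in the list, 80 lay in these windows, which is 0.249%. All 80 belonged to the 7 reference genes and 0 to the 2 insulin genes.

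The peaks came from ATAC-seq of BAT nuclei of mice kept on chow until 12 weeks of age and then held at 4°C for 4 hr. There were 2 WT libraries, from floxed (Dot1l f/f) control mice, and 2 Dot1L-BKO libraries, in which Ucp1-Cre deletes Dot1l, the histone H3K79 methyltransferase. All 4 mice were cold exposed, so that none shows the state at room temperature. Ucp1-Cre acts in Ucp1+ brown adipocytes, and vessel cells, immune cells and fat progenitors in the tissue keep their Dot1l. In bulk nuclei, fewer cells of a type and less open chromatin per cell cannot be told apart.

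The authors deposited a single list from the 4 libraries with 1 score for each summit, the −log10 of the MACS2 q-value. It has no value for any library, so that neither the read depth nor the spread between mice is known, and no member could be compared between WT and Dot1L-BKO. The name of the list sets the WT libraries against the Dot1L-BKO libraries, while the study's methods describe peaks found in each sample and joined to a union. Whether any library entered MACS2 as control for this list is not known here. If the Dot1L-BKO libraries were the control, a score would measure the excess of WT reads over Dot1L-BKO reads and not the openness itself, and a locus equally open in both would have no summit. All values below are therefore descriptions of 1 list, and gene lists are read against 45.2% of all genes with a summit within 1 kb of a TSS and 27.5% with none in a window of 50 kb.

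In ATAC-seq, the Tn5 transposase cuts and tags DNA that nucleosomes leave free. At the promoter of an active gene, general transcription factors and RNA polymerase II keep a stretch just before the TSS clear of nucleosomes. Many housekeeping promoters are CpG islands, rich in GC bases and CpG dinucleotides. Insulin promoters are short, poor in CpG, and bound in beta cells by factors such as Pdx1, Mafa and Neurod1. Ins2 is the ancestral insulin gene of the mouse, and Ins1 is a copy of it that arose through RNA and lies on another chromosome.

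The 250 bases before the TSS are given for 4 reference genes and for Ins1 from RefSeq (mm10, GRCm38.p6), 5′ to 3′ on the strand of the gene, because the summits of Tbp and Polr2a fall inside them, those of Gapdh and Ppia fall just outside them, and Ins1 shows an insulin promoter beside them. Capitals mark matches on either strand to 1 of the 7 motifs that are spelled out after them. The Gapdh stretch is chr6:125165774-125166023 on the minus strand, that of Tbp chr17:15499638-15499887 on the plus strand, that of Ppia chr11:6415617-6415866 on the plus strand, that of Polr2a chr11:69758634-69758883 on the minus strand, and that of Ins1 chr19:52264047-52264296 on the plus strand.
Gapdh: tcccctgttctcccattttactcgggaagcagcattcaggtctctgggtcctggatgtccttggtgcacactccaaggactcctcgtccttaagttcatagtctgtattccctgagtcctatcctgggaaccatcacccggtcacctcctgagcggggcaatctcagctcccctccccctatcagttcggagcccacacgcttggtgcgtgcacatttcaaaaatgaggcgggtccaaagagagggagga
Tbp: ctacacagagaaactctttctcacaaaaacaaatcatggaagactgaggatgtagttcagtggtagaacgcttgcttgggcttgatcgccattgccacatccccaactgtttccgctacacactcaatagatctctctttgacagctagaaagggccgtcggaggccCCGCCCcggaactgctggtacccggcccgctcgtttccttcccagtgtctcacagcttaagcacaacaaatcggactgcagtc
Ppia: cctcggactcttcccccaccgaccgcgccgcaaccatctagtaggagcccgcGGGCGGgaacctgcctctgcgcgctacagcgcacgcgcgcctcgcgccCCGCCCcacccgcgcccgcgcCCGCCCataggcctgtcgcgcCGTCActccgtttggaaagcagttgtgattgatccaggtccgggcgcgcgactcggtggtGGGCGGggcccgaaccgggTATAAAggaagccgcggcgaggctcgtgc
Polr2a: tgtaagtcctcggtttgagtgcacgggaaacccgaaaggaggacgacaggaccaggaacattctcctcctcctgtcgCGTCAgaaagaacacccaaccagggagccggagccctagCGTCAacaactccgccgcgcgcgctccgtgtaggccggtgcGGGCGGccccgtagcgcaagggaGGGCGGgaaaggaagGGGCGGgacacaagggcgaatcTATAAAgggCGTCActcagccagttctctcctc
Ins1: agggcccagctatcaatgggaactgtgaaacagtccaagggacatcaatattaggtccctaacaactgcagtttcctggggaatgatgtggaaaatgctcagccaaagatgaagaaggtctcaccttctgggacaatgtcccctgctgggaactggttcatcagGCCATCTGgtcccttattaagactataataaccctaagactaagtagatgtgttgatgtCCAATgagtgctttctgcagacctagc
The table of promoter sequences held 6 of the 9 members, the others being Actb, Ywhaz and Ins2.

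Positions in these promoters are counted from the first base of the mRNA as 0, and every motif was searched on both strands of the 300 bp from 250 bases before the TSS to 50 bases after its start. Ppia and Polr2a both held the letters TATAAA, at −29 and −33, where the TATA-binding protein of the basal machinery usually binds. These are 2 of 5 reference promoters, and 13.6% of the 32851 promoters in the RefSeq table held these letters. GC boxes, spelled GGGCGG and bound by Sp1, were found in 3 of 5 reference promoters against 35.7% of all promoters. Ppia had 4 of them, Polr2a had 3, at −93, −70 and −55, and Tbp had 1 at −83. The core of the cAMP response element, spelled TGACG, was found in 4 of 5 reference promoters, all but Gapdh, against 20.8% of all promoters. The matches of Ppia and Polr2a lay upstream of the TSS. Those of Tbp lay past it, at 20 and 37, and so outside the stretch given above. In Gusb, 2 overlapping matches at −4 and −1 spanned the TSS.

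The letters CCAAT stood in 0 of 5 reference promoters and at −27 in Ins1, and in 37.4% of all promoters. Ins1 also held the E box of the insulin promoters, spelled GCCATCTG, at −86 and at 40, which 1.32% of all promoters held and 0 of 5 reference promoters. The ETS core CCGGAAG was in 8.86% of all promoters and in 0 of 5 reference promoters. The NRF1 core GCATGCGC was in 2.71% of all promoters and in 0 of 5 reference promoters, and Ins1 held neither of these. Gapdh matched none of the 7 motifs in this window. A match is a description of the letters, and a missing match says nothing of the factor.

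The 300-bp promoter of Ppia had a GC content of 70.7%, that of Polr2a 63.7%, that of Gapdh 56.7%, that of Tbp 53.3%, that of Gusb 49.7% and that of Ins1 48.3%. The median over all promoters in the table was 52.7%. CpG dinucleotides were compared with the number the base composition would give. This ratio was 1.16 at Ppia, with 43 CpG, 0.995 at Polr2a, with 30, 0.803 at Tbp, with 17, 0.501 at Gapdh, with 12, and 0.325 at Gusb, with 6. Ins1 held 0 CpG. The Ppia ratio was at percentile 99.2 of all promoters and that of Ins1 at percentile 2.71, with equal values sharing a percentile. Genes with a promoter summit, defined in the next paragraph, had a median GC content of 62.0% and a median ratio of 0.796 over 7802 promoters, and genes without one 50.7% and 0.286 over 9045. Gusb had a promoter summit although its GC content and its CpG ratio were closer to the medians of the genes without one.

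**Figure D1:**
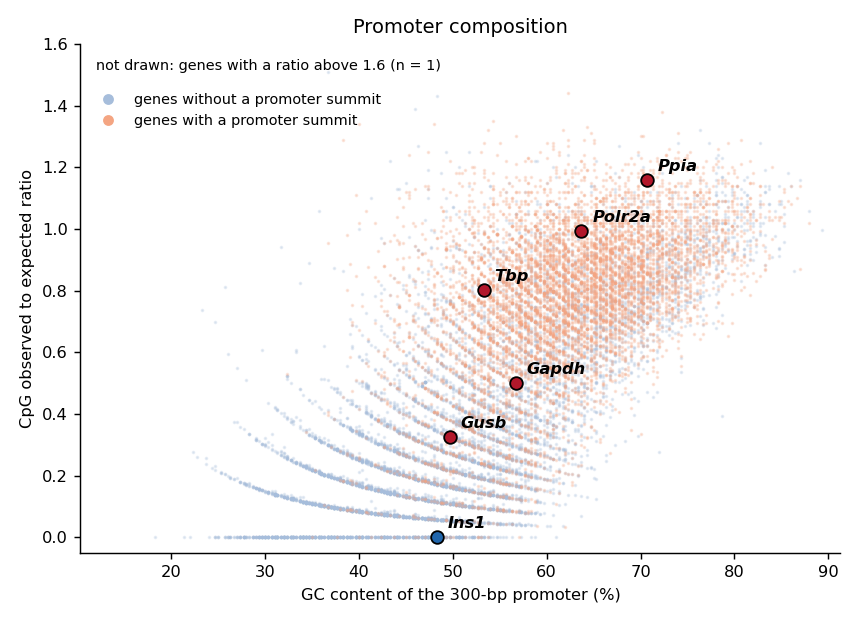
GC content (x axis, %) and CpG observed to expected ratio (y axis) of the 300-bp promoter, 1 small point a gene, in orange for genes with a promoter summit and in blue for genes without one, and large points for the members in the RefSeq table. Ppia and Polr2a lie among the CpG-rich promoters at ratios of 1.16 and 0.995, Gusb lies at 0.325, and Ins1 lies on the line of promoters with 0 CpG.

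All 7 reference genes had a promoter summit, which means a summit within 1 kb of a TSS, and 0 of the 2 insulin genes had one. The share over all genes was 45.2% (9485 of 21000). The reference genes held 12 promoter summits between them, of which 3 genes had 1, 3 genes had 2 and 1 gene had 3. With a score of at least 10 required, the count stayed at 7 of 7 reference genes, where the share over all genes was 23.5%. The highest promoter score of each gene ranged from 11.0 at Tbp to 46.9 at Gapdh with a median of 30.1. Over all genes with a promoter summit the median was 10.7, with quartiles of 5.55 and 20.9 and a 90th percentile of 36.7. All 7 reference genes were above that median. For Ywhaz this rested on a summit 883 bp from the TSS. Its highest score was 7.05 with 500 bp on each side and 2.53 with 1 kb upstream to 100 bp downstream, both below 10 and below the median. Scores are compared here within the list, and the median was 5.0 over all summits and 4.99 over those in the members' windows.

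**Figure D2:**
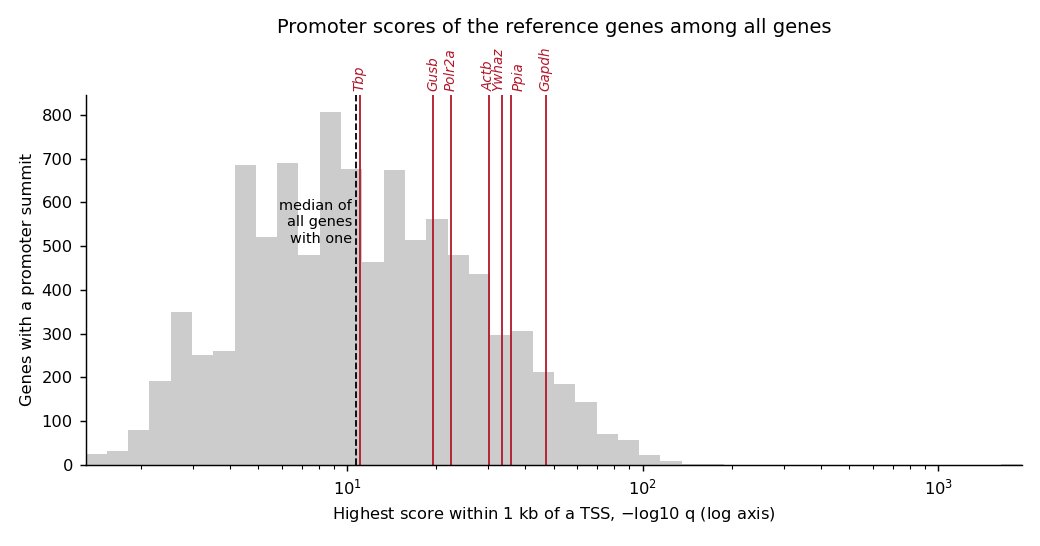
Histogram of the highest score within 1 kb of a TSS (x axis, −log10 q, log axis) over the 9485 genes with a promoter summit (y axis, number of genes), with a red line at each reference gene and a dashed line at the median of 10.7. Tbp, at 11.0, lies beside the median, and Gapdh lies farthest to the right of the members, at 46.9.

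Gapdh (chr6:125161852-125166467, minus strand) encodes the glycolytic enzyme glyceraldehyde-3-phosphate dehydrogenase. Its promoter summit had a score of 46.9 and lay at chr6:125165696, in the 5′ UTR of exon 1. Gapdh has 2 TSSs, and this summit lay 77 bp downstream of the nearer one. It is therefore just past the end of the stretch given for Gapdh, which ends before that TSS. Gapdh ranked 572 among the 9485 genes for its promoter score, percentile 94.0. A summit of nearly the same score, 45.5, lay at chr6:125161593, 4180 bp downstream of the same TSS. That position is 259 bp past the end of Gapdh and in the 3′ UTR of Iffo1, a gene for an intermediate filament-like protein. The other 5 summits nearest to Gapdh had scores of 1.83 to 4.61. The strong sites thus stood at the start of the gene and just past its end. Its promoter score was the highest of the reference members. As a gene of glycolysis, Gapdh is also part of the fuel use of brown fat, and a link of this to its score was not tested.

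Actb (chr5:142903115-142906754, minus strand) encodes beta-actin, the main cytoskeletal actin of non-muscle cells. A summit of score 30.1 lay 2 bp into exon 1, at chr5:142906752, and a summit of score 12.2 lay in intron 1, 817 bp downstream. This gene ranked 1311 for its promoter score, percentile 85.7. The 18 summits in its window were the most of any member, and 10 of them had Actb as their nearest TSS. An intergenic site at chr5:142920935, at −14181 bp, had a score of 28.7, close to that of the promoter, and a site at −3115 bp had 9.78. The farthest upstream site with Actb as its nearest TSS was at −25798 bp, with a score of 8.65. The site at −17505 bp (score 6.78) lay wholly in masked repeat sequence.

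Ppia (chr11:6415867-6419817, plus strand) encodes cyclophilin A, a prolyl isomerase that helps proteins to fold. Its promoter summit had a score of 35.9 and lay at chr11:6415609, 258 bp upstream of the TSS, so that it fell just before the stretch given for Ppia with its 4 GC boxes. A second summit 902 bp upstream had a score of 2.92. Ppia ranked 979 for its promoter score, percentile 89.5. The promoter of H2az2, the neighbouring gene for a histone H2A variant, had a summit of the same score, 35.9, and 37 summits in the list shared this value. Ranks among equal scores are therefore ties, and the whole list held 2606 distinct scores.

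Ywhaz (chr15:36770261-36802984, minus strand) encodes 14-3-3 zeta, an adaptor that binds phosphorylated proteins. It has 3 TSSs, and the sites gathered downstream of the one used by 3 of its mRNAs. From that TSS the scores were 7.05 at 369 bp, 33.3 at 883 bp, 45.5 at 1913 bp and 4.16 at 2764 bp. The second TSS had a summit of score 2.53 at 47 bp upstream of it, and the third had none within 1 kb. Ywhaz ranked 1096, percentile 88.1, by the summit of 33.3, and its strongest site, in intron 1, lay outside the promoter window. No other gene had a TSS in this window, and all 8 summits had Ywhaz as their nearest gene, including 3 sites with scores of 2.53, 3.75 and 3.75 that lay 39.66 to 40.97 kb upstream.

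Polr2a (chr11:69733997-69758633, minus strand) encodes the largest subunit of RNA polymerase II. Its promoter summit had a score of 22.4 and lay at chr11:69758833, 200 bp upstream of the TSS. It fell between the start of the stretch given for Polr2a and its first capitals, upstream of the 3 GC boxes and the TATA box. A second summit of score 2.92 lay 489 bp downstream in the first coding exon. The rank was 2155, percentile 77.0. Only these 2 of the 12 summits in the window had Polr2a as their nearest gene.

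Gusb (chr5:129989011-130003049, minus strand) encodes beta-glucuronidase, a lysosomal enzyme. A summit of score 19.5 lay at chr5:130002950, 99 bp into exon 1, giving rank 2504 and percentile 73.6. Its body held 4 further summits between 1228 and 4548 bp downstream, all weak, with scores of 2.53 to 4.19. They lay in introns 1 and 4 and in coding exons 2 and 5.

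Tbp (chr17:15499888-15517427, plus strand) encodes the TATA-binding protein, which nucleates the assembly of the basal transcription machinery. It had the lowest promoter score of the reference genes, 11.0, at chr17:15499824, 64 bp upstream of the TSS and between its GC box and the TSS. It ranked 4467, percentile 52.9, so that its promoter was close to the middle of all genes with a promoter summit. This was the only one of 7 summits in its window with Tbp as the nearest gene. Psmb1, a proteasome subunit gene read in the opposite direction, starts 1612 bp away and had a summit of score 11.5 at its own promoter, at −1540 bp from Tbp. The other scores were 10.1, 3.72 and 1.86 at largely masked repeats in an intron of Psmb1, 9.5 in an exon of Prdm9 and 4.16 at the promoter of Pdcd2.

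**Figure D3:**
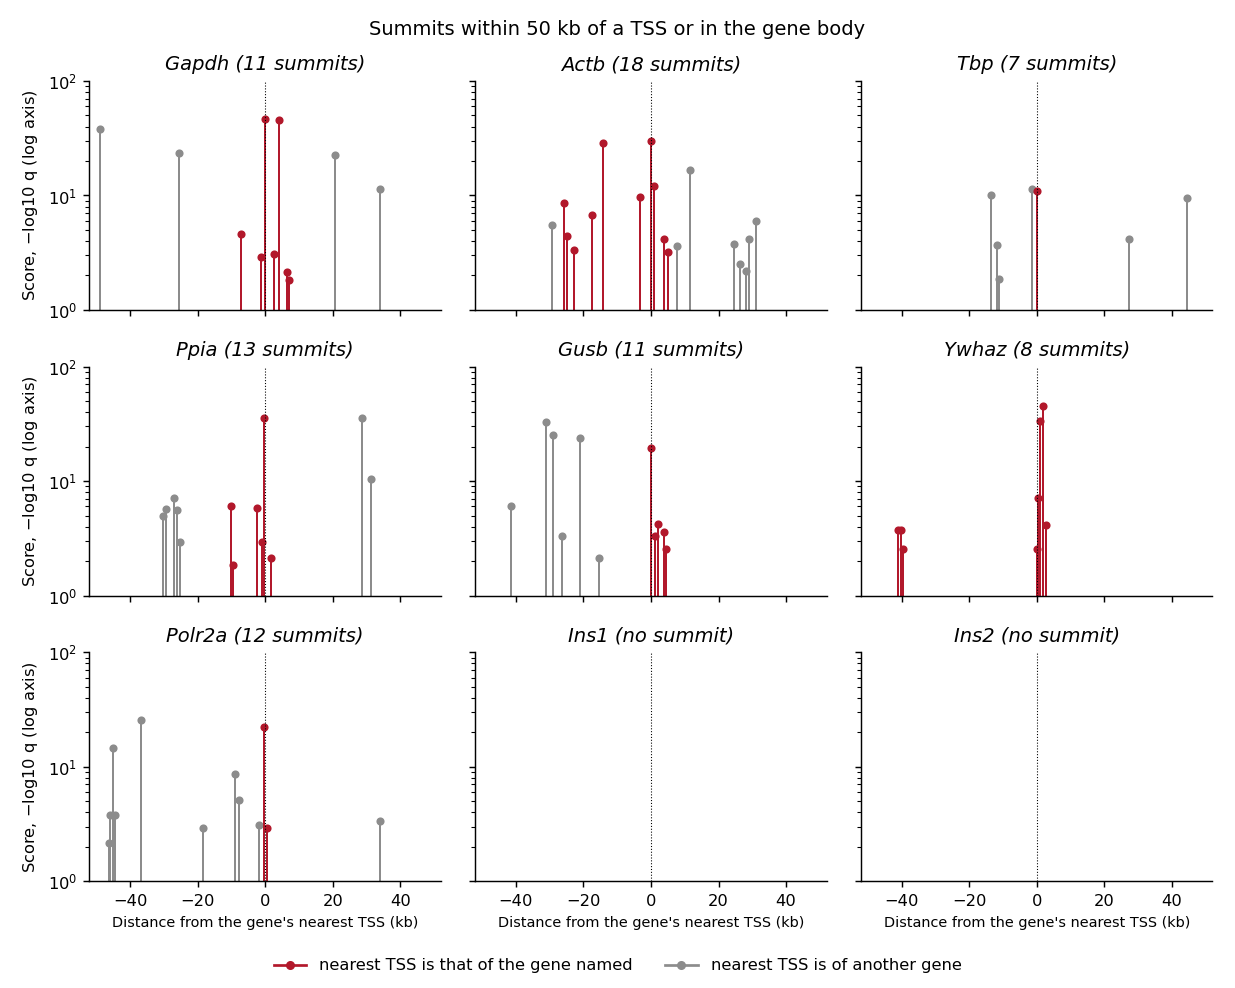
Score of each summit (y axis, −log10 q, log axis) against its distance from the nearest TSS of the gene (x axis, kb, downstream to the right), 1 panel a gene, in red where that gene has the nearest TSS and in grey where another gene has it. Each reference gene has a red summit at its TSS, strong second sites in red stand beside Gapdh, Actb and Ywhaz, and the panels of Ins1 and Ins2 are empty.

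Among the reference genes, the highest promoter summit was at a median of 99.0 bp from the TSS in either direction, and at a median of 143 bp over all genes with one. It lay upstream of the TSS at Tbp, Ppia and Polr2a and downstream at Gapdh, Actb, Gusb and Ywhaz. The 12 summits in the promoter windows had a median score of 15.8. A further 27 were nearest to the gene but more than 1 kb away, and their median was 3.75. Of those 27, 3 had a score of at least 10, at Gapdh (45.5), Actb (28.7) and Ywhaz (45.5). No distant site of Tbp, Ppia, Gusb or Polr2a that was nearest to the gene itself reached this score. Tbp and Polr2a had no such site at any score. Their windows and those of Ppia and Gusb did hold strong sites over 1 kb from any TSS, each nearest to another gene. The scores were 10.1 for Tbp, 10.4 for Ppia, 32.9 and 25.4 for Gusb, and 14.7 for Polr2a. Each promoter was called, and each window held a strong distant site, so that the members differed in which gene was nearest to it.

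The windows of 50 kb also hold neighbouring genes. The reference genes had between 7 summits (Tbp) and 18 summits (Actb) in their windows, with a median of 11.0, and the 2 insulin genes had 0. Of all genes, 72.5% had a summit in such a window, the median was 2 and the upper quartile was 5. The other counts were 8 at Ywhaz, 11 at Gapdh, 11 at Gusb, 12 at Polr2a and 13 at Ppia, so that each reference gene stood above the upper quartile, at percentiles of 81.9 to 96.0. Of the 80 summits, 39 were nearest to a TSS of the reference gene and 41 to that of another gene. In gene bodies lay 16, with 5 each in Gusb and Ywhaz and 0 in Tbp.

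**Figure D4:**
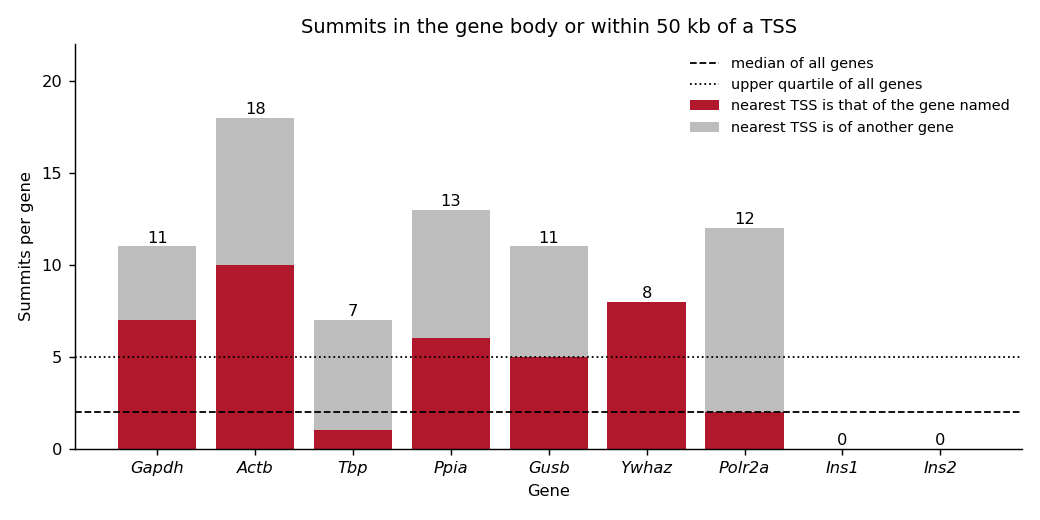
Number of summits inside the gene or up to 50 kb from a TSS (y axis) for each member (x axis), split by whether the nearest TSS is that of the gene (red) or of another gene (grey), with lines at the median and upper quartile of all genes. The 7 reference genes reach 7 to 18 summits, above the upper quartile of 5, Ywhaz has no grey part, and Ins1 and Ins2 are at 0.

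The windows also took in the promoters of neighbours. Of the 80 summits, 25 (31.2%) had a score of at least 10, against 23.5% of all summits. Of these, 8 lay within 1 kb of the member's own TSS, 9 within 1 kb of another gene's TSS and 8 farther from any TSS. Around Gapdh, the promoter of Vamp1, a synaptobrevin gene, had a score of 38.4, that of Ncapd2, a condensin subunit gene, 23.5, that of Iffo1 22.4 and that of Nop2, an rRNA methyltransferase gene, 11.5. In the Gusb window the highest scores were in introns of Crcp, at 32.9 and 25.4, and near the TSS of Asl, an enzyme gene of the urea cycle, at 23.8, all above the 19.5 of Gusb itself. In the Polr2a window an intron of Chrnb1, an acetylcholine receptor subunit gene, held the highest score, 25.4. In all, 17 other genes had a TSS in the 7 windows, and 15 of them (88.2%) had a promoter summit, where the share was 45.2% over all genes and 52.3% over genes with 5 or more others in the window.

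Gene density moved with the number of summits. Over all genes, those with 0 or 1 other gene in the window had a median of 1 summit and 34.7% had none (10547 genes), those with 2 to 4 others had a median of 3 and 21.2% had none (7520 genes), and those with 5 or more others had a median of 8 and 17.8% had none (2933 genes). Gapdh and Polr2a had 5 other genes each, Tbp, Ppia and Gusb 2 each, Actb and Ins2 1 each, and Ywhaz and Ins1 0. All 7 reference genes exceeded the median of their class, and Ins1 and Ins2, with 0 summits, were below theirs. The part of gene density in the member counts was not tested.

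The rule took summits up to 50 kb from a TSS. Farthest inside was the Vamp1 promoter summit, at −48930 bp from Gapdh, with a score of 38.4. The nearest ones outside were at −52417 bp from Ywhaz (score 2.80) and at −53133 bp from Actb (score 5.55).

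Ins1 (chr19:52264297-52265015, plus strand) and Ins2 (chr7:142678656-142679726, minus strand) both encode proinsulin, and neither had a summit inside it or in the 50 kb on each side. Of all genes, 27.5% (5777 of 21000) had none, so that an empty window alone is common. Of the 11515 genes without a promoter summit, 50.2% had no summit in the window either. The nearest summit to Ins1 lay 514513 bp downstream at chr19:52778810, with a score of 2.01, and its nearest gene was Xpnpep1, a peptidase gene. On the other side the nearest was 1712787 bp upstream with a score of 3.41. This left a stretch of 2227 kb without a summit, which held Sorcs1, a neuronal sorting receptor gene, and Ins1. A gene with an empty window lies in a long gap by definition, so that the gap was set beside those of other such genes. Of 5741 genes with an empty window and a summit on both sides, 6.95% lay in a gap at least as long, and their median gap was 583 kb.

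Ins2 lay in a shorter gap of 472 kb, and 59.9% of the genes with an empty window lay in one at least as long. Its nearest summit was 146392 bp away at chr7:142533334 with a score of 8.65, nearest to Mrpl23, a mitochondrial ribosomal protein gene. On the other side a summit of score 3.20 lay 325820 bp away, nearest to Tspan32. The gap held the start sites of 5 genes, which were Ins2, the imprinted genes Igf2 and Ascl2, the tetraspanin gene Tspan32, and Th, the gene for tyrosine hydroxylase. Both insulin genes were thus without a called site over a far wider region than the window of the rule. The neighbours in the Ins2 gap were not all alike. Igf2 had 0 summits in its own window of 50 kb, and Ascl2 had 2.

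Sequence features of the windows were compared, since a repeat or an assembly gap can leave a region without mapped reads. No window held an unknown base. The GC content of the 7 reference windows was 42.8% to 50.5%, that of the Ins2 window was 46.7%, within this range, and that of the Ins1 window was 38.7%, below it. Masked repeats made up 23.8% to 39.3% of the reference windows, 38.9% of the Ins1 window and 16.8% of the Ins2 window. The Ins2 window thus held less masked sequence than any reference window.

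Several members have copies of their mRNA in the genome, processed copies or related genes, which can take reads from the gene or lend it reads. At 80% identity over at least 50% of the mRNA, Gapdh had 294 copies elsewhere, Ppia 52 and Actb 17, and Tbp, Gusb, Ywhaz and Polr2a had 0. Ins1 and Ins2 each had 1, which was the other. Of the 363 copies of reference mRNAs, 3 held a summit, with scores of 1.42 (a Gapdh copy on chromosome 10), 5.87 (in Actg1) and 2.53 (an Actb copy at Lrrc58). The copies span 421 kb, so that there was 1 summit for each 140 kb of copies, beside 1 for each 82.3 kb of the chromosomes without unknown bases. With so few summits in the copies, nothing is read from this difference.

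Around each of the 39 summits nearest to a reference gene, the 201 bp centred on the summit were searched in the genome. For 35 of them, including all 12 promoter summits, no other match of 90% identity over 50 bp was found. The exceptions were the Gapdh sites at 2675 bp (127 other matches, score 3.06) and 6552 bp (1 match, score 2.15), the Actb site at −17505 bp (3834 matches, score 6.78) and the Ppia site at −2555 bp (13 matches, score 5.85). These sites with other matches all had scores under 10.

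The promoter calls were set beside those of related genes. For other common reference genes no share is given, since their list was shortened by 1 gene after its values were seen. Among the genes left, the highest scores were Rpl13a, a ribosomal protein gene, at 68.5 and Eef1a1, a translation elongation factor gene, at 47.3, both above Gapdh. Hprt, Nono and Hsp90ab1 had none, although Hsp90ab1 had 13 summits in its window. Hprt and Nono lie on the X chromosome, where 12.6% of genes (114 of 902) had a promoter summit against 46.8% on the autosomes, and Pgk1, also on X, had one with a score of 18.1. A common reference gene was therefore not always called.

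The families of the members were called to different extents, beside the 45.2% of all genes. All 6 other 14-3-3 genes had a promoter summit, from 4.61 at Ywhae to 55.7 at Ywhaq. For cyclophilins it was 9 of 11, with a median of 7.05 and none above the 35.9 of Ppia. The other RNA polymerase II subunit genes had 9 of 11, with a median of 8.65 and a highest score of 40.2 at Polr2h. Of the 5 other actin genes, Actg1, the second cytoskeletal actin, had a promoter summit (score 14), and the muscle actins Acta1, Acta2, Actc1 and Actg2 had none. Tbpl1 had one (23.1, above Tbp), and the oocyte factor Tbpl2 and the sperm enzyme gene Gapdhs had none.

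The insulin genes were set beside other genes of islets and of their family. Of 10 islet genes, 1 had a promoter summit (10%, 95% Wilson interval 1.79% to 40.4%), Mafa, a beta-cell transcription factor gene, with a score of 7.39. Such intervals hold the error of counting alone. The share over all genes was 45.2%. In their windows, 6 of the 10 (Gcg, Iapp, Pdx1, Slc2a2, G6pc2 and Slc30a8) had no summit, against 27.5% of all genes, and Ppy had 7, Mafa 5, Nkx6-1 2 and Sst 1. Of 7 insulin and relaxin family genes, 0 had a promoter summit (upper limit of the interval 35.4%), among them Igf1 and Igf2. Of these 7, 5 had summits in their windows, from 1 to the 16 of Rln3, so that Ins1 and Ins2 shared an empty window with Igf2 and Insl5. For the 2 insulin genes the upper limit was 65.8%, since 0 of 2 says little on its own.

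Marker genes of the tissue were looked up. Their list was chosen with earlier results known and holds genes that the study itself shows for ATAC-seq, so that it is no independent check of the label. All 10 genes of the brown adipocyte list had a promoter summit, with a median score of 20 and a range of 6.02 to 61.5, among them Ucp1, the uncoupling protein of brown fat, at 33.7. Of these genes, Pparg, Adipoq, Fabp4 and Plin1 are used by all adipocytes and do not tell brown from white fat. The 7 reference genes, at 11.0 to 46.9, lay within the range of this list. Markers of other cells had 1 of 3 for endothelium (Cdh5, 2.59), 1 of 3 for macrophages (Cd68, 2.15), 1 of 3 for fat progenitors (Pdgfra, 4.16) and 0 of 3 for skeletal muscle. Those scores were below the lowest promoter score of the reference genes, as were those of 3 of the 10 adipocyte genes, Cox8b (6.02), Adipoq (6.02) and Elovl3 (9.78).

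**Figure D5:**
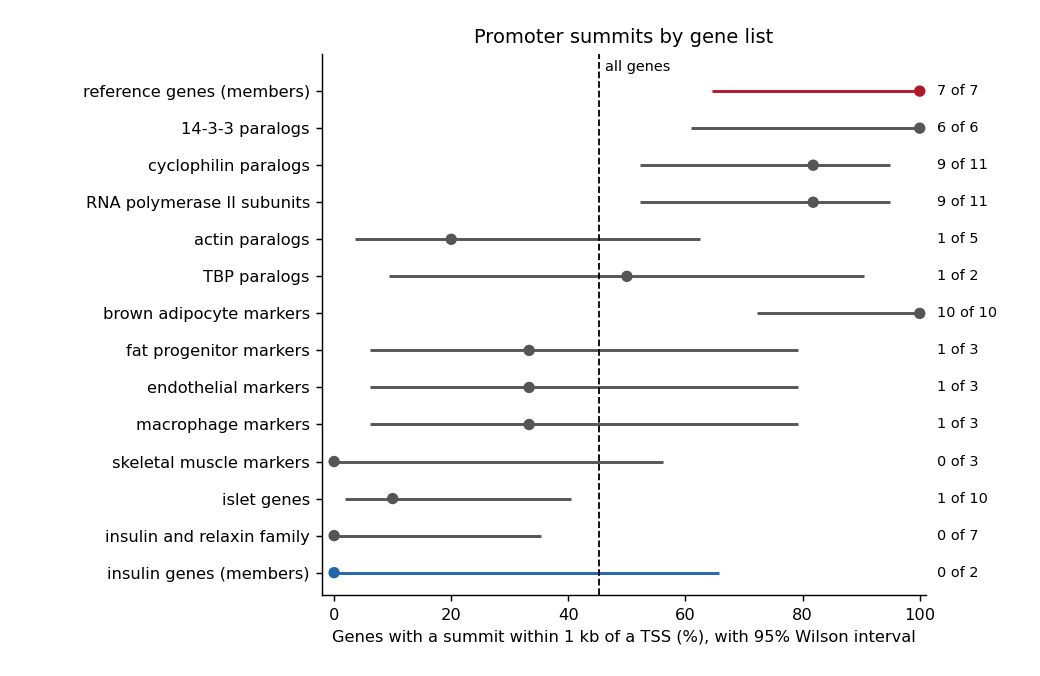
Share of genes with a summit within 1 kb of a TSS (x axis, %) for each gene list (y axis), with 95% Wilson intervals for counting error as lines, which are no test between lists chosen by hand, the count at the right and a dashed line at the 45.2% of all genes. The reference members (7 of 7), the brown adipocyte list, which includes general adipocyte genes (10 of 10), and the 14-3-3 genes (6 of 6) are at 100%, and the insulin members, the insulin and relaxin family and the skeletal muscle markers are at 0%.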

How the data were processed

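ATAC-seq covered 2 WT and 2 Dot1L-BKO mice, whose BAT nuclei were processed separately, and RNA-seq libraries of the series were not analysed here. Per the submitters' processing notes, the tools were bcl2fastq 2.2, CASAVA, cutadapt 1.2.1, BWA and MACS2 2.1.1, with the reads aligned to mm10. The authors kept peaks at a q-value of 0.05 and with an enrichment of at least 2.0 over background. The deposited list holds the summits with the −log10 q-value of MACS2 for each, from the 4 libraries together. Shifting of reads for the transposase and the handling of multi-mapped and mitochondrial reads are not given in the sources used here.

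Summits were placed on curated RefSeq mRNAs of the same build (GRCm38.p6) on chromosomes 1 to 19, X and Y. A promoter summit lay within 1 kb of a TSS, and a window covered the gene body and 50 kb on each side of every TSS. Since no library has values of its own, no test was made, and shares stand beside those of all genes. The members and gene lists were chosen with earlier results of these data known. A gene taken out of the list of other reference genes after its values were seen is not reported here, and no share of that list is given. Apart from the background, genes named were the members, genes nearest to or holding summits in their windows, and genes of the lists. Genes next to the insulin genes or at a copy with a summit were also named. Naming neighbours beyond the highest summit of a window was chosen after their values were seen. Alternatives changed the score minimum, the windows, the mRNAs, the merging of summits and how summits were given to genes. The placement of summits was tested on simulated data at isolated genes with a single TSS. Genes with several TSSs or close neighbours, as among the members, were not covered by it. For copies and for matches of summit windows, blastn 2.17.0 was run in its megablast mode with 1e-10 as the largest e-value. Short or diverged matches can be missed by this search. The software was Python 3.11.15, pysam 0.24.0, numpy 2.4.6, matplotlib 3.10.9, pandas 2.3.3 and scipy 1.17.1.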

Additional observations from a re-analysis of the deposited data

How the results depend on the processing

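All 7 reference genes kept a promoter summit under each of 9 alternatives. Both insulin genes stayed without one under the same alternatives, and the insulin windows held 0 summits under each of 8, including windows of 100 kb. The insulin outcomes were largely fixed beforehand, since their windows held 0 summits and the nearest summit lay 146392 bp from Ins2. They are therefore no check of how firm the absence is. The median promoter score of the reference genes, 30.1, became 22.4 with 500 bp on each side of a TSS and also with 1 kb upstream to 100 bp downstream, since the Ywhaz summit of 33.3 then left the window, and it moved under none of the other 7 alternatives. The count of 80 summits in the reference windows became 40 with a score of at least 5, 25 with a score of at least 10, 49 with windows of 25 kb, 126 with windows of 100 kb, and 39 when the nearest TSS had to be that of the gene. The share of all genes with a promoter summit, 45.2%, became 36.1% with a score of at least 5, 23.5% with at least 10, 41.4% with 500 bp, 50% with 5 kb, 35.2% with 1 kb upstream to 100 bp downstream, 46.5% with predicted mRNAs added, and 41.4% when the nearest TSS had to be that of the gene. No paired analysis was possible because summits carry a single score made from the 4 libraries, and without values per library no replicate could be left out. Depth and the MACS2 control are unknown, so that a locus without a summit, Ins1 and Ins2 included, was not called and is not shown to be closed.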
